A study of Mus musculus with 2 samples.

Results

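The genes described here are the ligands, receptors, SMAD proteins, latent binding proteins and secreted antagonists of the transforming growth factor beta (TGF-beta) and bone morphogenetic protein (BMP) superfamily. They were chosen by gene symbol, with earlier results of these data known, which gave 62 of the 52636 genes in the deposited tables. RNA-seq was carried out on tissue labelled retina from C57BL/6 mice aged 8 weeks. There was 1 library from wild-type mice (WT) and 1 from mice without the microRNA miR-29a (miR-29a KO), each from 3 mice pooled. How the miR-29a allele was made, and whether its deletion is restricted to some cells, is not given in the sources used here. With 1 library per group there is no replicate check and no test of genotype, so every difference below is one between these 2 libraries, with counting error only.

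In this pathway, a dimeric ligand brings together type I and type II receptor kinases, and the type I receptor phosphorylates receptor-regulated SMAD proteins, which enter the nucleus with SMAD4. TGF-betas and activins mainly use SMAD2 and SMAD3, while BMPs use SMAD1, SMAD5 and SMAD9. TGF-beta is stored in the extracellular matrix in a latent form, and BMPs and activins are held in check by secreted antagonists such as gremlin, noggin and follistatin. In the eye the superfamily is known for roles in dorsal patterning, matrix production and fibrosis. The microRNA miR-29 is known for repressing collagen and other matrix genes, and TGF-beta is known to lower miR-29 in fibroblasts.

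In markers of retinal neurons, the libraries went against their tissue label. The WT-labelled library held 26805902 counts and the KO-labelled library 24876925. Of 21 markers of retinal neurons, 18 lay under 50 counts in both libraries, and 8, among them Nrl, Arr3, Grm6, Lhx1, Onecut1, Gad1 and Pou4f2, were without a count in both. A count of 0 allows a level of up to 0.112 and 0.121 CPM, the count scaled to equal library totals. The summed level of the 21 was 81.8 CPM in the WT-labelled library and 98.9 CPM in the KO-labelled library, nearly all from Prkca, Slc6a9 and Rbpms. Of 7 Mueller glia markers 4 passed 50 counts, and the list summed to 498 and 479 CPM, mostly from Dkk3 and Glul. Of 8 pigment epithelium markers 3 passed 50 counts, Ttr (89 and 9), Tyr (80 and 21) and Mitf (138 and 214). Ttr and Tyr were lower by 2-fold in the KO-labelled library, against 2.82% of all genes past 50 counts. The 12 fibroblast markers, of which none was at 0, summed to 15879.5 and 17961 CPM. Macrophage markers were higher by 2-fold in the KO-labelled library for 11 of the 12 past 50 counts, and the whole list of 14 summed to 300.2 and 777 CPM, with Cx3cr1 at 0 and 5 counts. Endothelial markers were higher by 2-fold for 5 of 10, and the whole list of 12 summed to 116 and 134 CPM, with none at 0. By comparison, 4.47% of all genes past 50 counts were higher by 2-fold. Xist, the RNA of the inactive X chromosome, had 4288 and 0 counts. The Y-linked genes had counts in both libraries and were all higher in the KO-labelled library. Ddx3y had 67 and 376 counts, Kdm5d 30 and 310, Eif2s3y 50 and 280 and Uty 17 and 126. The part of sex and of these cell types in the values below was not tested. In such bulk samples fewer cells of a type and less RNA per cell cannot be told apart.

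The microRNA removed in the KO mice pairs with its targets mainly through bases 2 to 8, the seed. The mature sequences of its family are shown because they define the sites searched in the member genes. They are given 5′ to 3′ from RefSeq (GRCm38.p6), with the seed in capitals.
mmu-miR-29a-3p: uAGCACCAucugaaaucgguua
mmu-miR-29b-3p: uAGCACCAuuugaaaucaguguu
mmu-miR-29c-3p: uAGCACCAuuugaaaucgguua
All 3 share the seed AGCACCA, so a seed match for miR-29a is also one for miR-29b and miR-29c. In that build mature miR-29a lies on the minus strand of chromosome 6 (31062673 to 31062694) and miR-29c on the plus strand of chromosome 1 (195037600 to 195037621). The reverse complement of the seed, TGGTGCT, was searched on the transcript strand of the longest 3' UTR of each protein-coding gene in GENCODE M21.

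Of 43 members with at least 50 counts in the higher library, 5 held this heptamer, which is 11.6%. Of the 11585 genes past that minimum that could be searched, 16.1% held it, and among genes with 3' UTRs of like length to those of the members the share was 20.3%. The 6 sites of these 5 genes are shown because they are the heptamer matches in members past the minimum. Bmp15 and Bmp8b, under the minimum, also held the heptamer and are not shown. Each has 8 bases on either side, reads along the transcript, and has the heptamer in capitals, with GRCm38 positions.
Tgfb2, upstream site, minus strand, chr1:186623796-186623818: ggttttttTGGTGCTcatggggt
Tgfb2, downstream site, minus strand, chr1:186622808-186622830: cggttttgTGGTGCTctagtggt
Acvr2a, plus strand, chr2:48902232-48902254: catgtgtaTGGTGCTcacgatgt
Bmpr1a, minus strand, chr14:34414168-34414190: ccataaagTGGTGCTttctgtga
Bmpr2, plus strand, chr1:59871849-59871871: gtagcttcTGGTGCTgctgtacc
Smad5, plus strand, chr13:56739839-56739861: agcttccgTGGTGCTaaggatca
The match in Smad5 is followed by A, the longer form of seed site, and the others are not. Tgfb2 encodes a ligand, Acvr2a, Bmpr1a and Bmpr2 encode receptors, and Smad5 encodes a BMP-responsive SMAD. A match is a description of sequence and does not show that the microRNA acts there.

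None of these 5 genes differed by 2-fold between the libraries, and of all genes with the heptamer 5.22% did, so the count is near the background. The log2 ratio of KO over WT, taken after adding 0.5 CPM to each library, was 0.21 for Acvr2a, 0.17 for Smad5, 0.07 for Bmpr2, 0.00 for Tgfb2 and -0.06 for Bmpr1a. Their median was 0.07, and that of the 38 members without the heptamer was -0.10. Over all genes the medians were 0.14 with the heptamer and 0.05 without, and these were not corrected for GC content or length. After correction for transcript GC content and length the median of the 5 genes was -0.21, so its sign depends on that choice. The members that did differ by 2-fold held no such heptamer. Of them, Gdf10 held another form of seed site, a match to bases 2 to 7 followed by A. Fstl1 and Tgfb3, within 2-fold, also held that form without the heptamer.

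Across the whole family, the members past 2-fold were 4 ligands and 1 antagonist, and no receptor or SMAD was among them. Members whose log2 ratio reached 1, or -1, were counted as differing. Of the 43 members past the minimum, 3 were higher in the KO-labelled library (Bmp2, Bmp6 and Grem1), 2 were lower (Gdf15 and Gdf10) and 38 were neither, which is 11.6% past 2-fold against 7.29% of all 12382 genes. By direction the background was 4.47% higher and 2.82% lower. For all 5 of these members the entire counting interval was past 2-fold, as it did for 4.82% of all genes. At 4-fold, Gdf15 was the 1 member beyond the threshold, against 1.3% of all genes, and at 1.5-fold 6 members were higher and 3 lower, against 22.2% of all genes. Among the members, 21 had a log2 ratio above 0 and 22 below, with a median of -0.06 against 0.06 for all genes. Within 0.5 of 0 lay 33 of the 43 members, and 71.1% of all genes. The other 19 members were under the minimum, and 7 of them had 0 counts in both libraries.

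**Figure D1:**
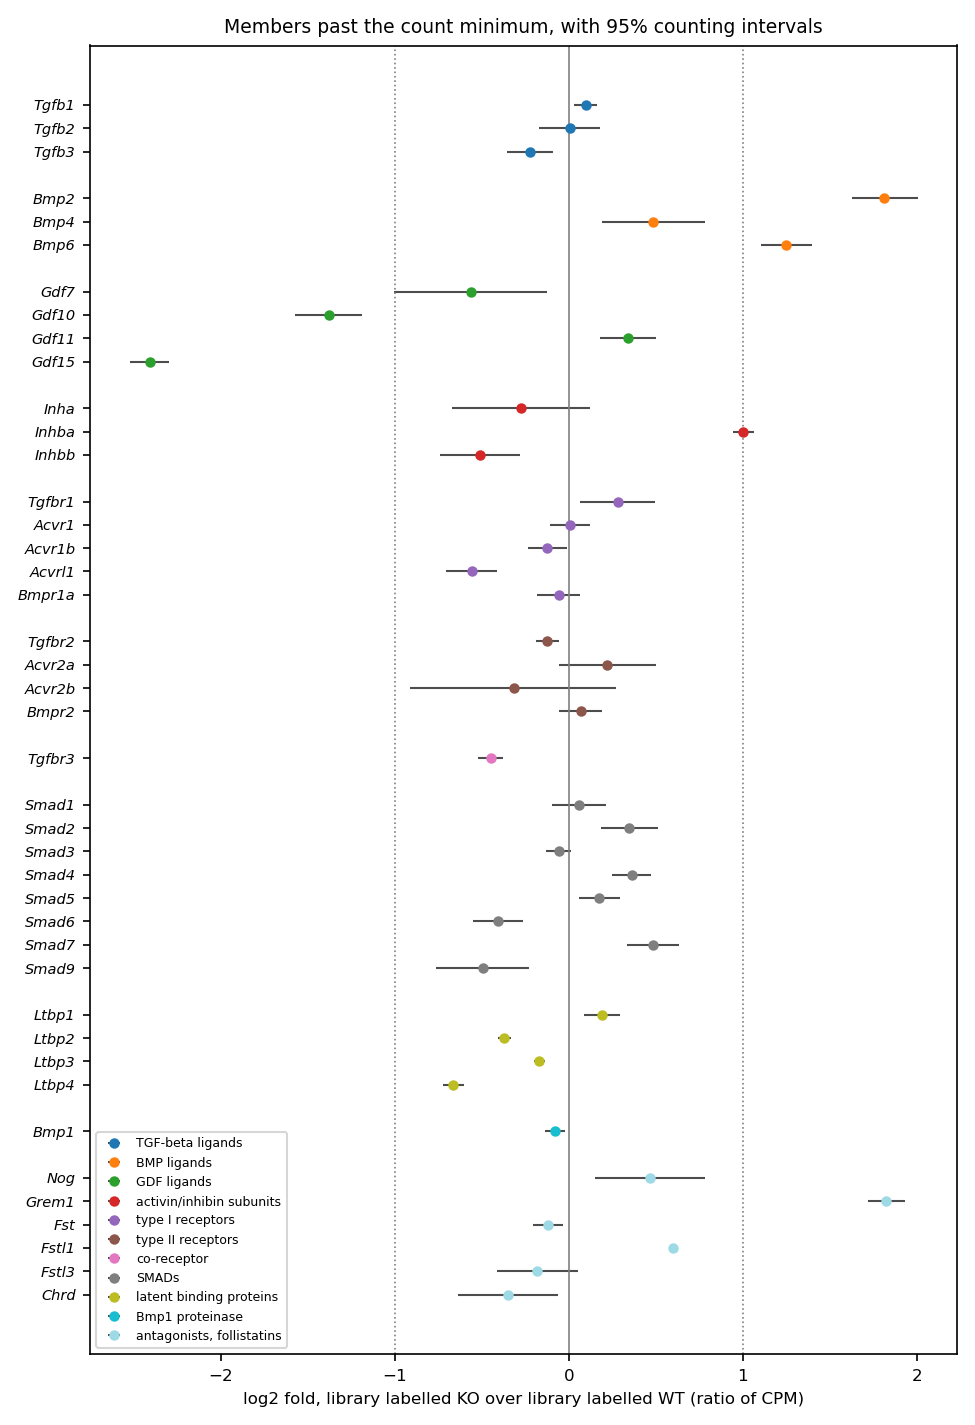
log2 fold (ratio of CPM, KO-labelled library over WT-labelled library) of the members described here with 50 or more counts, grouped by role. Points are the ratio of 1 library to 1 library, bars are 95% counting intervals, and dotted lines mark 2-fold. Bmp2, Bmp6 and Grem1 lie to the right, Gdf15 and Gdf10 to the left, and Inhba on the right-hand line.

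The TGF-beta ligands were nearly equal in the libraries. Tgfb1, a TGF-beta of immune and mesenchymal cells, had 3649 counts in the WT-labelled library and 3619 in the KO-labelled library, a log2 ratio of 0.10. Tgfb3 had 1082 and 860 counts, with a log2 ratio of -0.22, and Tgfb2, the main TGF-beta of the eye's aqueous humour, 549 and 511. Per transcript length, by the authors' FPKM, Tgfb1 was the most abundant of the 3 in both libraries (28.6 and 29.4), followed by Tgfb3 (12.6 and 10.4) and Tgfb2 (3.74 and 3.61). The order of these levels was the same in both libraries.

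The BMP ligands past the minimum all stood higher in the KO-labelled library. Bmp2 (ENSMUSG00000027358, chromosome 2, positions 133552159 to 133562885, plus strand, GRCm38), a strong inducer of bone and cartilage, had 303 counts in the WT-labelled library and 988 in the KO-labelled library. It was 3.51-fold higher, with a 95% exact counting interval of 3.09 to 4.01. Bmp6 (ENSMUSG00000039004, chromosome 13, positions 38345107 to 38500302, plus strand), known for controlling iron through hepcidin, had 561 and 1238 counts and was 2.38-fold higher (2.15 to 2.63). An exon of Bmp6 shares 224 bp with Txndc5 on the other strand, which had 17890 and 11765 counts and was thus lower in the KO-labelled library. The strand setting of the counting is not given, so reads in that stretch cannot be assigned. Bmp4, a dorsal patterning ligand of the eye, had 170 and 221 counts, a log2 ratio of 0.46. The FPKM of the 10 BMP ligands together was 13.0 in the WT-labelled library and 28.8 in the KO-labelled library, and Bmp6 and Bmp2 held most of it in both. The ratio of Bmp2 to Bmp4 in FPKM was 1.12 and 2.80.

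The remaining 7 BMP ligands lay under the minimum. Bmp7 had 37 and 28 counts, Bmp8a 29 and 3, Bmp8b 3 and 0, Bmp15 2 and 0, and Bmp3 0 and 1, while Bmp5 and Bmp10 had 0 in both. Bmp8a was 8.97-fold lower in the KO-labelled library on these few counts, with an interval of 2.78 to 46.0. Bmp8a and Bmp8b are close paralogues on chromosome 4, so the assignment of their reads is uncertain.

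The growth differentiation factors (GDFs) held the largest fold among members past the minimum, and it was in the other direction. Gdf15 (ENSMUSG00000038508, chromosome 8, positions 70629393 to 70632456, minus strand), a stress-induced distant member that signals to the brainstem receptor GFRAL, had 4217 counts in the WT-labelled library and 737 in the KO-labelled library. It was 5.31-fold lower in the latter (4.91 to 5.75). By FPKM it was the third most abundant member in the WT-labelled library (89.8), and 16.3 in the KO-labelled library. Gdf10 (ENSMUSG00000021943, chromosome 14, positions 33923587 to 33937983, plus strand), also called BMP3B, had 857 and 306 counts and was 2.60-fold lower (2.28 to 2.97). The other GDFs past the minimum were within 2-fold. Gdf11, a close relative of myostatin, had 601 and 706 counts, a log2 ratio of 0.33, and Gdf7 had 116 and 73 counts, a log2 ratio of -0.49. Together the 10 GDFs summed to 113 FPKM in the WT-labelled library and 31.4 in the KO-labelled library, and Gdf15 made up 79.3% and 51.9% of these sums.

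Gdf9, known as an oocyte factor, had 41 and 37 counts, Gdf5 4 and 8, and Gdf3 and Gdf6 each 2 and 0. Gdf2 and Gdf1 had 0 counts in both libraries. Gdf1 shares up to 889 bp of exon with Cers1 on the same strand, which had 434 and 248 counts, so no level of Gdf1 is read from its 0.

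Among activin and inhibin subunits, Inhba stood at the 2-fold line. Inhba (ENSMUSG00000041324, chromosome 13, positions 16011851 to 16031621, plus strand) encodes the beta A chain, whose dimer is activin A. It had 3305 counts in the WT-labelled library and 6141 in the KO-labelled library, a fold of 2.00 (1.92 to 2.09). With 0.5 CPM added its log2 ratio fell just short of 1, so it was not among the 3 members counted as higher, and with 0.1 CPM added it was. Inhbb, the beta B chain, had 408 and 266 counts, a log2 ratio of -0.49. Inha, the alpha chain that turns an activin into an inhibin, had 125 and 96, and its counting interval held 1. Inhbc and Inhbe, known from liver, had 0 counts in both. In FPKM, Inhba stood at 5.39 times Inhbb in the WT-labelled library and at 15.4 times in the KO-labelled library.

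**Figure D2:**
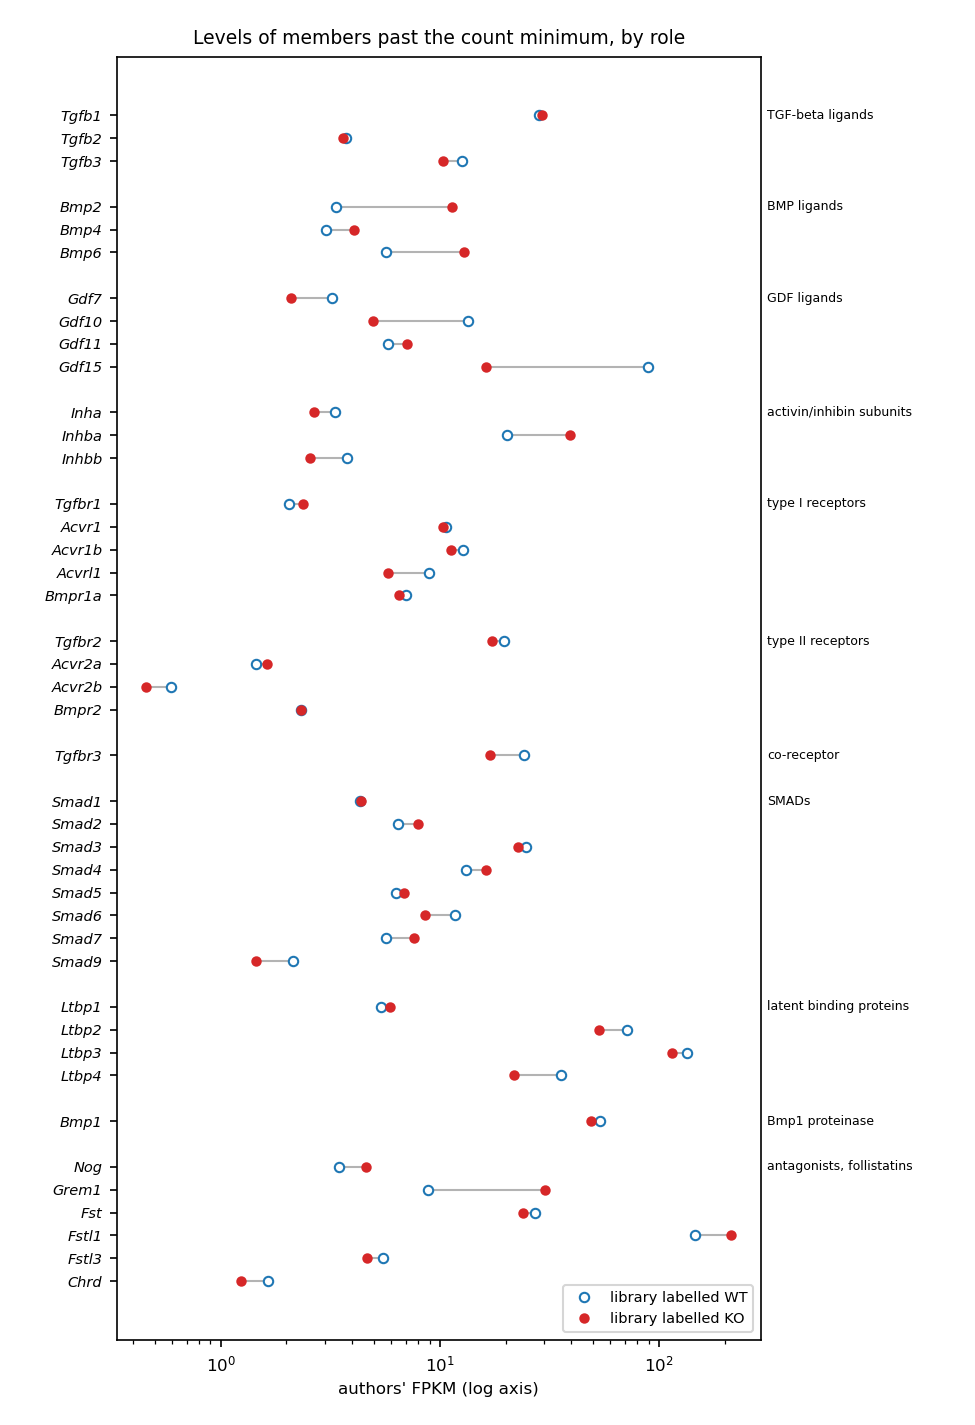
Authors' FPKM (log axis) of the members described here that passed the minimum, by role, with open blue circles for the WT-labelled library and filled red circles for the KO-labelled library. Fstl1 and Ltbp3 have the highest levels in both libraries, and the widest gaps belong to Gdf15, Grem1, Bmp2, Gdf10 and Bmp6.

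Of the 10 receptors and co-receptors past the minimum, 0 were beyond 2-fold, a count near the background of 7.29%. The type II receptor Tgfbr2, which binds TGF-beta first, had 4090 and 3486 counts, a log2 ratio of -0.12. Its type I partner Tgfbr1 had 339 and 382, a log2 ratio of 0.27, and per length it was less abundant (2.05 and 2.39 FPKM) than Tgfbr2 (19.7 and 17.4 FPKM). The BMP type I receptor Acvr1 had 1315 and 1226 counts (log2 ratio 0.01) and the activin type I receptor Acvr1b 1428 and 1216 (-0.12). Among the other receptors, Bmpr1a had 1131 and 1009 counts, Bmpr2 1059 and 1030, Acvr2a 209 and 226 and Acvr2b 59 and 44. The log2 ratios of these 4 ran from -0.25 to 0.21, and the counting interval of each held 1. For Acvr2a, an exon shares 446 bp with Orc4 on the other strand, which had 183 and 317 counts.

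The widest difference among receptors past the minimum was that of Acvrl1, the type I receptor for BMP9 and BMP10 that is typical of endothelium. It had 965 counts in the WT-labelled library and 608 in the KO-labelled library, a log2 ratio of -0.55. The 10 endothelial markers past the minimum had a median log2 ratio of 1.08, with 8 above 0 and 2 below, Eng (-0.19) and Emcn (-0.25). The whole list summed to 116 and 134 CPM, and without Eng, its most abundant gene, to 30.8 and 60.1 CPM. With the GC and length correction Acvrl1 came to -0.39, and Tgfbr3 at -0.63 was then the widest. Tgfbr3, the betaglycan co-receptor, had 4014 and 2727 counts, a log2 ratio of -0.45. A pair of type I receptors lay under the minimum. Acvr1c had 4 and 8 counts. Bmpr1b, known from cartilage, had 5 and 45, which is 9.70-fold higher in the KO-labelled library with an interval of 3.86 to 31.3. Its 45 counts kept it out of the members counted as higher.

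All 8 SMAD genes passed the minimum, and all lay within 0.5 of 0 on the log2 scale, as did 71.1% of all genes. Of the TGF-beta and activin SMADs, Smad3 had 3487 and 3106 counts (log2 ratio -0.06) and Smad2 584 and 690 (0.34). Smad4, the shared partner, had 1244 and 1482 counts (0.36). Among the BMP SMADs, Smad5 had 1189 and 1246 counts (0.17), Smad1 690 and 667 (0.06) and Smad9 290 and 191 (-0.47). The inhibitory SMADs had ratios of opposite sign. Smad6, which mainly blocks BMP signals and is itself induced by them, had 959 and 671 counts, a log2 ratio of -0.40. Smad7, which blocks TGF-beta and BMP receptors and is induced by TGF-beta, had 650 and 844, a log2 ratio of 0.48. The ratio of Smad6 to Smad7 in FPKM was 2.08 in the WT-labelled library and 1.12 in the KO-labelled library. By FPKM, Smad3 was the most abundant SMAD in both libraries (24.8 and 22.9).

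The genes named for latent TGF-beta binding proteins, some of which anchor stored TGF-beta in the matrix, were abundant and within 2-fold. Ltbp3 had 17765 and 14648 counts (log2 ratio -0.17), Ltbp2 14817 and 10636 (-0.37) and Ltbp1 1432 and 1516 (0.19). Ltbp4, which also takes part in elastic fibre assembly, had 5879 and 3442 counts, a log2 ratio of -0.66. Together the 4 genes reached 248 FPKM in the WT-labelled library and 196 in the KO-labelled library. Exons of Ltbp2 overlap D030025P21Rik (764 bp) on the other strand. Bmp1, despite its name, encodes a procollagen C-proteinase that also cleaves chordin. It had 5155 and 4530 counts, a log2 ratio of -0.08.

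Among secreted antagonists and the follistatin family, 1 of 7 past the minimum was beyond 2-fold, against 7.29% of all genes. Grem1 (ENSMUSG00000074934, chromosome 2, positions 113746164 to 113758646, minus strand) encodes gremlin 1, which binds BMP2, BMP4 and BMP7. It had 935 counts in the WT-labelled library and 3072 in the KO-labelled library, 3.54-fold higher (3.29 to 3.81). The interval of Grem1 overlapped that of its ligand Bmp2, and the ratio of Grem1 to Bmp2 in FPKM was 2.64 in the WT-labelled library and 2.66 in the KO-labelled library. Against Bmp4 the ratio was 2.95 and 7.45.

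Other BMP antagonists were within 2-fold. Nog, which encodes noggin, had 149 and 191 counts (log2 ratio 0.43), and Chrd, which encodes chordin, 243 and 177 (-0.33). Fst encodes follistatin, which neutralises activins. It had 2327 and 1987 counts, a log2 ratio of -0.12, and the ratio of Inhba to Fst in FPKM was 0.750 in the WT-labelled library and 1.63 in the KO-labelled library. Fstl3, another activin-binding protein, had 342 and 280 counts, and its interval held 1. Fstl1, a secreted glycoprotein of mesenchymal cells, had 18310 and 25773 counts, a log2 ratio of 0.60, and was the most abundant member by FPKM in both libraries. Fstl4 had 15 and 7 counts and Fstl5 had 0 in both.

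Other genes of the pathway came from lists of target genes, activation and storage factors, further ligands and co-receptors, further antagonists and intracellular regulators. Of 101 such genes 78 passed the minimum, 3 were higher in the KO-labelled library, 2 were lower and 73 were neither, which is 6.41% past 2-fold against 7.29% of all genes. Their median log2 ratio was 0.15, against 0.06 for all genes. The plot of cumulative distributions shows them beside the members.

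**Figure D3:**
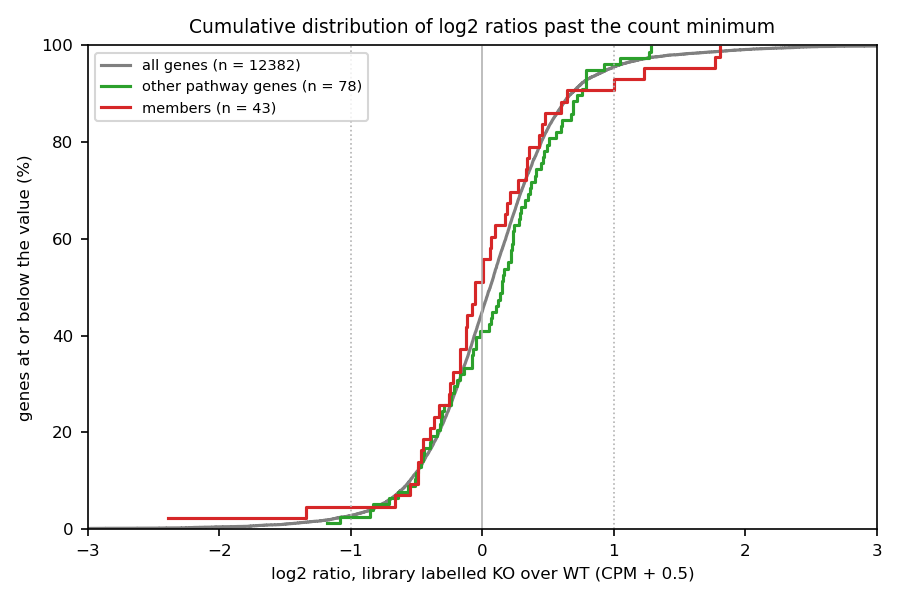
Share of genes (vertical axis, percent) at or below each log2 ratio of KO over WT (horizontal axis, drawn from -3 to 3) for all 12382 genes past the minimum, the 78 other pathway genes and the 43 members. The 3 curves lie close together between the dotted 2-fold lines, and the curve of the members runs from Gdf15 on the left to Grem1 on the right.

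Target genes of the pathway were split between the directions. Of 21 target genes past the minimum that are not members, 10 had a log2 ratio above 0 and 11 below, with a median of -0.07. The most abundant by FPKM in both libraries were Id3 (564 and 413) and Cdkn1a (325 and 297), with log2 ratios of -0.39 and -0.07. Next came the collagen genes Col1a1 (204 and 161) and Col3a1 (136 and 169), whose order differed between the libraries and whose log2 ratios were -0.29 and 0.37. Of the other Id genes, direct targets of BMP SMADs, Id1 had a log2 ratio of 0.24, Id2 -0.08 and Id4 0.56. Of TGF-beta targets, Ctgf had 0.24, Pmepa1 0.16 and Tgfbi -0.86. Postn, which encodes the matrix protein periostin, had 3865 and 1690 counts and was 2.12-fold lower in the KO-labelled library. Skil, which encodes the SMAD repressor SnoN, had 249 and 492 counts and was 2.13-fold higher (1.82 to 2.49). With the GC and length correction its log2 ratio was 0.74, under 2-fold.

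Of 17 activation and storage genes past the minimum, 2 were higher and 0 lower, against 4.47% and 2.82% of all genes. Nrros, which anchors latent TGF-beta on macrophages and microglia, had 119 and 287 counts and was 2.60-fold higher (2.09 to 3.25), beside macrophage markers with a median log2 ratio of 2.00. That whole list summed to 300.2 and 777 CPM. Without Cd14, the 1 of them past the minimum that was not higher (log2 ratio -0.16), it summed to 173 and 663 CPM. The part of macrophages in the value of Nrros was not tested. Tll1, a relative of the Bmp1 proteinase, had 416 and 946 counts and was 2.45-fold higher (2.18 to 2.76). The most abundant by FPKM, Pcolce (411 and 316), Mmp2 (370 and 419) and Thbs1 (150 and 137), had log2 ratios of -0.32, 0.23 and -0.08.

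The 6 further ligands and co-receptors past the minimum held 0 past 2-fold, against 7.29% of all genes. The most abundant, the co-receptors Eng, Cd109 and Rgmb, had log2 ratios of -0.19, 0.14 and 0.23. Of 11 further antagonists, 1 was lower, against 2.82% of all genes. Wfikkn2, which binds myostatin and GDF11, had 110 and 38 counts and was 2.69-fold lower (1.84 to 3.99). Nbl1 (381 and 262 FPKM), Bgn (357 and 291) and Dcn (180 and 330) were the most abundant of them. Dcn encodes decorin, a proteoglycan that binds TGF-beta, and had a log2 ratio of 0.93. Of 27 intracellular regulators, 21 had a log2 ratio above 0, as did 55% of all genes. Their median was 0.29, and 0.08 with the GC and length correction. Skil was the 1 past 2-fold, against 7.29% of all genes. The most abundant in both libraries was Fkbp1a, which keeps type I receptors silent, with a log2 ratio of 0.28. After it came the repressor Ski (38.5 and 33.0 FPKM), Tgfb1i1 (27.0 and 19.1) and Strap (21.2 and 35.4), in a different order in each library, with log2 ratios of -0.17, -0.44 and 0.79.

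The log2 ratio went with the GC content of the transcript, for the members as for all genes. Across genes, which are not independent replicates and share these 2 libraries, Spearman's rho was -0.50 for the 43 members and -0.44 for 12371 genes. Inhba has a GC content of 41.4%, Grem1 44.7%, Gdf10 51.8%, Bmp2 52.5%, Bmp6 57.8% and Gdf15 61.3%. After the correction for GC content and length, the log2 ratio was 1.76 for Bmp2, 1.39 for Bmp6, 1.53 for Grem1, -1.42 for Gdf10 and -2.05 for Gdf15. All 5 remained past 2-fold, while Inhba came to 0.68. Among members within 2-fold, Ltbp4 moved from -0.66 to -0.36 and Smad6 from -0.40 to -0.11. Smad7 came to 0.66 and Smad9 to -0.66, so with this correction not all SMADs lay within 0.5 of 0. The sign changed for 11 members, all within 0.5 of 0 before the correction. They were Tgfb2, Inha, Acvr1, Tgfbr1, Acvr2a, Bmpr2, Smad1, Smad5, Ltbp3, Bmp1 and Fstl3. All 10 receptors and co-receptors past the minimum were then below 0, against 6 without the correction.

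**Figure D4:**
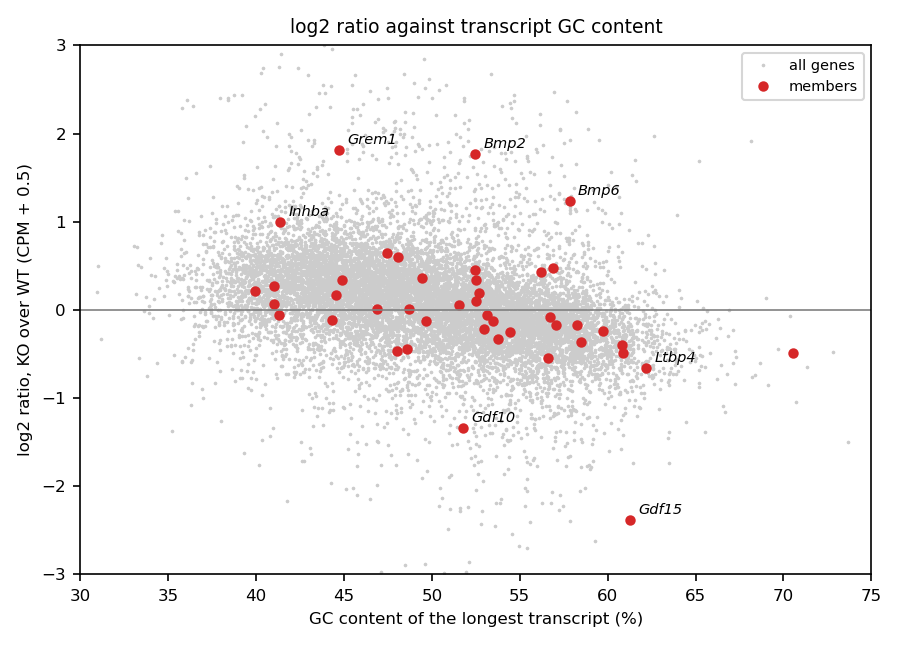
log2 ratio of KO over WT (CPM with 0.5 added, drawn from -3 to 3) against the GC content of the longest transcript in percent, for all genes past the minimum (grey) and the 43 members (red), with the members farthest from 0 named. Both clouds slope down with GC content, with rho of -0.44 and -0.50.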

How the data were processed

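RNA-seq values of 1 WT library and 1 miR-29a KO library were used. Per the labels' protocols, Ribo-Zero depletion of ribosomal RNA came before NEBNext Ultra library preparation. The submitters' processing notes name HISAT2 and mm10 (GRCm38). Which program counted the reads, with which annotation and strand setting, is not given in the sources used here. Each deposited count, a whole number for each gene per the file headers, was used as it stands. The authors' FPKM, whose scaling is likewise not given, served for levels between genes and as an alternative.

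Positions, GC content, lengths and 3' UTRs came from GENCODE M21 (GRCm38), which held 52403 of the 52636 genes. Left out were 4 genes, none a member, whose count per FPKM was not the same in both tables (tolerance 1%). CPM is the count scaled by the library's total. The log2 ratio was taken after adding 0.5 CPM, and folds are ratios of CPM with 95% exact (Clopper-Pearson) intervals, which cover counting error only since no molecular identifiers are named. Genes needed 50 counts in the higher library and were counted from 2-fold on. Members and lists were chosen with earlier results of these data known. Man1a, entered in a list by mistake, was removed after its values were seen. Some genes are not reported here. The other members are named, with the other pathway genes past 2-fold or among the 3 most abundant of their list, and any further pathway gene was chosen after its values were seen. The alternatives were a total that leaves out mitochondrial and the 20 most counted genes, scaling by median-of-ratios or by TMM in edgeR, other pseudocounts, minimums and thresholds, FPKM, and subtraction of the median of genes of like GC content, then of like length. Marker sums without 1 gene were added after seeing the data. The procedure was tested on counts simulated with counting error alone, so that test does not cover variation between mice or pools. Python 3.11.15, pandas 2.3.3, scipy 1.17.1, R 4.3.3 and edgeR 4.0.16 were used.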

Additional observations from a re-analysis of the deposited data

How the results depend on the processing

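No paired analysis was possible because each group has 1 library, and for the same reason no replicate could be left out. Under the scalings, pseudocounts, minimums, FPKM and the GC and length correction tried, 3 or 4 members were higher and 2 or 3 lower by 2-fold. The median of all genes was 0.06 with total counts and -0.00 with median-of-ratios factors, and that of the members -0.06 and -0.12. With median-of-ratios factors Smad9 came to -0.53, so not all SMADs then lay within 0.5 of 0. At 1.5-fold 6 members were higher, and at 4-fold 0 were higher and 1 was lower. Of the other pathway genes 1 was lower, in place of 2, with a pseudocount of 2 CPM, a minimum of 200 counts or FPKM, and 2 were higher, in place of 3, with median-of-ratios factors, a pseudocount of 2 CPM, FPKM or correction for GC content and length. The median of members with the miR-29 heptamer was -0.21 after the GC and length correction, against 0.07, and the cause was not tested. Of the values of single members under these settings, 388 lay within their counting interval and 37 outside it. The 388 include values under other minimums, which leave a member's ratio unchanged and so lie within by construction. No member past 2-fold changed sign, while 11 members nearer to 0 did with the GC and length correction. Members under 50 counts, such as Bmpr1b and Bmp8a, are limited by depth.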

Other observations

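Genes of cartilage and bone, tissues in which BMPs are best known, were present in part. Of 11 such markers 7 passed the minimum, with Spp1 higher and Comp lower by 2-fold in the KO-labelled library. By comparison, 4.47% of all genes were higher and 2.82% lower. Col2a1, the main cartilage collagen, had 3047 counts in the WT-labelled library and 3889 in the KO-labelled library, and Sox9, a transcription factor of cartilage, had 1823 and 1213. Acan, which encodes the cartilage proteoglycan aggrecan, and Ibsp, which encodes bone sialoprotein, had 0 counts in both libraries. Sp7, a transcription factor of osteoblasts, had 30 and 16 counts, and Bglap, which encodes osteocalcin, 9 and 0.

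Of 10 pericyte and smooth muscle markers 5 passed the minimum, 2 of them above 0 and 3 below, with a median log2 ratio of -0.29. Past 2-fold were 0 of them, against 7.29% of all genes. The lower ones were Notch3 (-0.74), Abcc9 (-0.37) and Cspg4 (-0.29). Of the smooth muscle genes in the list, Acta2 had 2179 and 3270 counts, while Tagln had 38 and 29, Cnn1 13 and 9 and Myh11 5 and 8.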
